A study of Mus musculus with 49 samples.

Results

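Paneth cells were compared with Lgr5-GFP-Cre stem cells, their neighbours at the base of the crypts of the mouse small intestine, by RNA-seq of sorted cells. The comparison takes the 2 Paneth and the 3 Lgr5-GFP-Cre columns of the read count table, 5 of its 25 RNA-seq libraries and of the 49 samples of the series. All 5 libraries came from untreated adult mice of a B6;129 mixed background, from crypts of the proximal part of the small intestine freed with 5 mM EDTA. The Paneth cells were from wild-type mice. Their crypts were dispersed with 0.5 U/ml Dispase for 30 min, and cells high in CD24 and high in binding of the lectin UEA (from Ulex europaeus) were sorted. The stem cells were from mice carrying Lgr5EGFP-IRES-CRE-ERT2, an allele that places GFP and a tamoxifen-inducible Cre in the Lgr5 gene and disrupts that copy of it. Their crypts were dispersed with 4X TrypLE for 45 min, and the cells highest in GFP were sorted. Genotype, sort and enzyme therefore differ together between the groups and cannot be told apart. Values of 2 further groups stand beside the results where they bear on this. Lgr5-GFP-DTR cells are GFP-positive stem cells from Lgr5EGFP-DTR mice (a diphtheria toxin receptor allele, no toxin given), also released with TrypLE, and enteroendocrine cells are CD24-high, UEA-negative cells of wild-type mice, released with Dispase, with 2 libraries each. For 1 gene list, values of 2 goblet cell libraries, also released with Dispase, are added. The labels call the replicates biological but name no mouse, litter or day. P-values therefore measure the spread between libraries within groups, estimated jointly over 24 libraries of 11 groups and not from these 5 alone. The 5 libraries held 13623911 to 22055980 counts.

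Lgr5-expressing cells at the crypt base divide continuously and give rise to every cell type of the epithelium. Paneth cells sit between them and do not divide; they fill granules with antimicrobial proteins (alpha-defensins, lysozyme, phospholipase) and release them into the crypt lumen. They are also known as niche cells, because they make Wnt3, EGF family ligands and Notch ligands, the 3 signals that maintain stem cells in culture. Levels below are CPM, read counts scaled to a common library size with edgeR's TMM factors, and a fold change is the log2 difference Paneth minus Lgr5-GFP-Cre ± its standard error. A gene is called higher or lower at an adjusted p below 0.05 (edgeR's quasi-likelihood test, Benjamini-Hochberg adjustment over the 14837 genes tested). Of these, 3207 (21.6%) were higher and 2833 (19.1%) lower in Paneth cells, 6040 (40.7%) in all, and the median log2 fold change was 0.01. In 54.0% of the genes the groups did not overlap, with both Paneth libraries above or both below the 3 stem cell libraries.

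The sorts carried the markers of their cell types, with exceptions on both sides. The 8 Paneth markers summed to 257760 and 161742 CPM in the Paneth libraries and to between 25915 and 32581 in the Lgr5-GFP-Cre libraries, and 8 of 8 were called higher. The 8 stem cell markers summed to 3977 and 2727 CPM against 6704 to 8424, and 4 were called lower. Lgr5 itself did not separate the groups: it was at 121 and 76.1 CPM in the Paneth libraries and at 66.3, 93.9 and 80.3 in the Lgr5-GFP-Cre libraries, ranges that overlapped (0.29 ± 0.38, adjusted p = 0.567). The stem cells carry a disrupted copy of Lgr5 and the Paneth cells do not, so allele and cell type cannot be told apart for this gene. In bulk RNA, more cells of another type and more RNA per cell cannot be told apart. Paneth replicate 2 stands apart in the 12 tuft cell markers, genes of a chemosensory cell of the same epithelium. They summed to 1581 CPM there, to 87.3 in Paneth replicate 1 and to 27.1 to 35.3 in the Lgr5-GFP-Cre libraries, and 10 of 12 were called higher. Goblet cell markers summed to 29609 and 13569 CPM against 2687 to 5110 (8 of 10 higher), and enteroendocrine markers to 850 and 720.4 against 299 to 357 (9 of 15 higher). Enterocyte markers summed to 7459 and 16250 CPM against 4347 to 7193 (5 of 14 higher). Lymphocyte markers reached 109 and 59.0 CPM against 25.2 to 47.3 (1 of 13 higher), myeloid and mast cell markers 112 and 52.8 against 29.8 to 54.6 (2 of 15 higher, 1 lower). Stromal, endothelial and red cell markers stayed between 2.89 and 8.89 CPM in the 5 libraries (Col1a1 and Col3a1 higher, of 8 tested), with Cdh5, Kdr, Dcn, Hba-a1 and Hbb-bs at 0. The part of these other cell types in the results below was not tested.

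**Figure D1:**
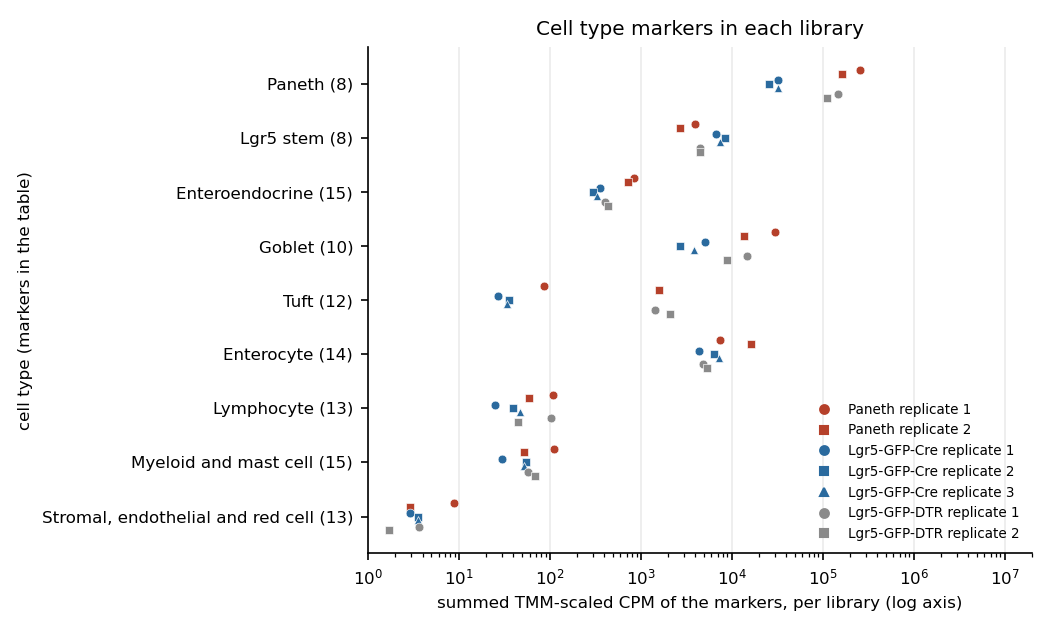
Summed TMM-scaled CPM (log axis) of the markers of 9 cell types in each Paneth, Lgr5-GFP-Cre and Lgr5-GFP-DTR library, 1 point per library. Paneth replicate 2 lies at 1581 CPM for tuft markers against 87.3 for replicate 1, and the Lgr5-GFP-DTR libraries lie nearer to the Paneth than to the Lgr5-GFP-Cre libraries for Paneth markers.

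The largest fold increases followed 1 library. The 10 genes most higher in Paneth cells included Dclk1, Bmx, Inpp5d, Alox5, Siglec5, Trpm5, Pik3cg, Ptgs1 and Pygl, and 4 of the 10 are tuft cell markers. Dclk1, a kinase used as a tuft cell marker, lay at 20.2 and 360.5 CPM in Paneth replicates 1 and 2 and at 2.07, 3.67 and 2.49 in the stem cell libraries (6.12 ± 1.01, adjusted p = 0.00014). Trpm5, the cation channel of chemosensory cells, stood at 12.9 and 284 CPM against 1.52, 3.92 and 4.54 (5.45 ± 1.05, adjusted p = 0.000555). In all 10 genes Paneth replicate 2 exceeded replicate 1, by 14.0 to 34.5 times. When the ranking was repeated without Paneth replicate 2, 0 of the 10 stayed among the 10 highest, and Thbs1 (5.94), Nts (5.26), Defa21 (5.16), Nupr1 (5.13) and Defa22 (5.13) led. Without Paneth replicate 1, 4 of the 10 stayed. Dclk1 had an adjusted p of 0.0215 without replicate 2 and Trpm5 of 0.165. Among all genes called higher, 224 differed more than 5-fold between the 2 Paneth libraries.

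The 10 genes most lower in Paneth cells included Hist1h1b, Sfrp5, Rgcc, Nrtn, Smarcd3, Gkn3, Cyp2e1, Ascl2 and Ier5l, and 6 of the 10 stayed among the 10 lowest without Paneth replicate 2. Hist1h1b, a linker histone made in S phase, was at 6.13 and 8.80 CPM in the Paneth libraries and at 126, 48.4 and 78.9 in the stem cell libraries (-3.48 ± 0.41, adjusted p = 5.79e-06). Sfrp5, a secreted Wnt antagonist, lay at 20.3 and 11.8 CPM against 202, 159 and 147 (-3.41 ± 0.36, adjusted p = 2.02e-06). Both genes were lower in each Paneth library than in any stem cell library.

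**Figure D2:**
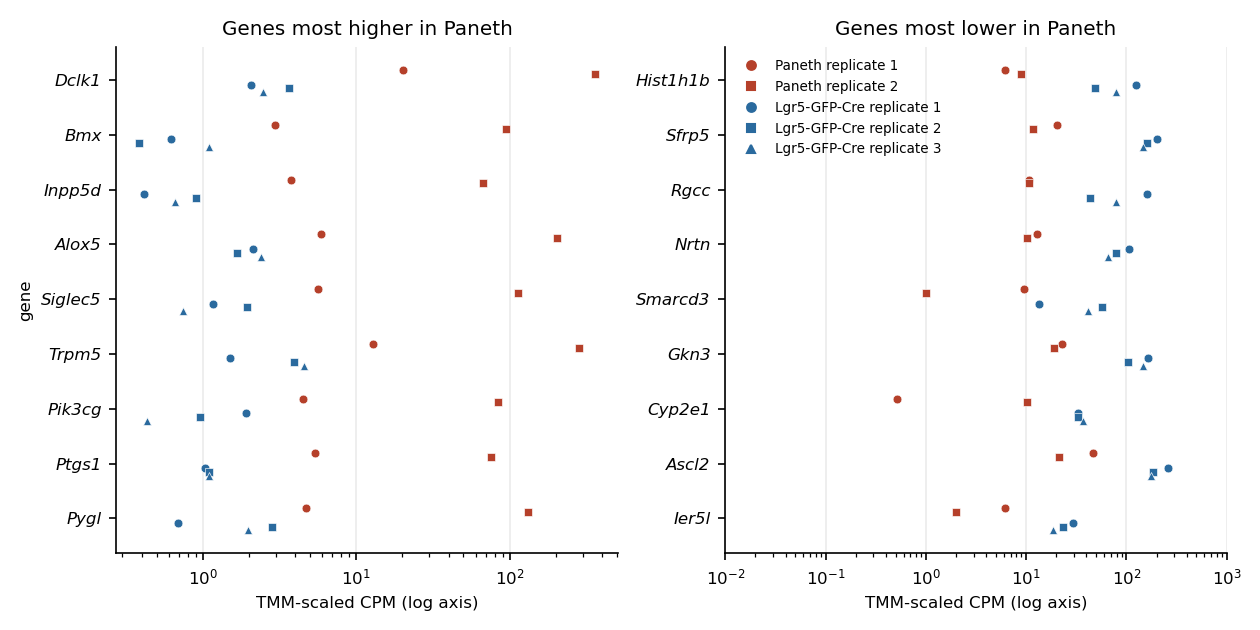
TMM-scaled CPM (log axes) in each library of 9 of the 10 genes with the largest fold changes in each direction, 1 point per library. In the left panel Paneth replicate 2 (squares) lies 14.0 to 34.5 times above replicate 1 in every gene.

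The genes of the sorted antigens were higher in Paneth cells. Cd24a, which encodes the antigen of the Paneth gate, was at 1455 and 1679 CPM in the Paneth libraries and at 444, 387 and 449.9 in the Lgr5-GFP-Cre libraries (1.88 ± 0.33, adjusted p = 0.000217). The Lgr5-GFP-DTR libraries held 1690.5 and 1744 CPM of it, although their labels name no CD24 gate. UEA binds fucose linked by the enzymes that Fut1 and Fut2 encode. Fut1 lay at 19.8 and 4.75 CPM against 1.24, 0.708 and 0.873 (3.70 ± 0.81, adjusted p = 0.00144, and 0.0525 without Paneth replicate 1). Fut2 stood at 2.04 and 7.31 CPM against 0.0689, 0 and 0.48 (4.43 ± 1.09, adjusted p = 0.0034, and 0.117 without Paneth replicate 2). The 2 Paneth libraries thus differed in which of the 2 genes was the more increased over the stem cells. A pair of related enzymes that UEA does not report, Fut4 (1.53 ± 0.17, adjusted p = 3.45e-06) and Fut8 (0.99 ± 0.17, adjusted p = 0.000239), were also higher, so that 5 of 6 tested genes of this list were called, with a list median of 1.70. As CD24 and UEA chose the Paneth cells, these values describe the sort.

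Alpha-defensins, the peptides that Paneth granules release against bacteria, were higher in Paneth cells. Of 18 rows of the table named as alpha-defensins or their pseudogenes, 8 were at 0 in the 5 libraries and 10 were tested. All 10 tested were called higher, with log2 fold changes of 2.19 to 4.48 and a median of 3.20, beside a background of 21.6% called higher. These genes are near-identical copies of each other, so that how reads were shared among them is uncertain. Defa17 was at 7311 and 2834 CPM in the Paneth libraries and at 1051, 668 and 883 in the stem cell libraries (2.55 ± 0.40, adjusted p = 9.57e-05). Defa24 lay at 13677 and 5962 CPM against 2342, 1107 and 1814 (2.48 ± 0.44, adjusted p = 0.00024). Defa22 stood at 7294 and 1711 CPM against 393, 57.00 and 174 (4.44 ± 1.11, adjusted p = 0.00397, and 0.0539 without Paneth replicate 1). Paneth replicate 1 was the higher library for these 3 genes, and both Paneth libraries lay above all stem cell libraries. The stem cell libraries held alpha-defensin RNA too, with 2504 to 6077 CPM summed over the list against 49366 and 23955 in the Paneth libraries. In the Lgr5-GFP-DTR libraries the sum was 26461 and 13896 CPM, and the list median against them was 1.06. In that comparison 0 of the 10 genes were called by edgeR's quasi-likelihood test, with 2 at an unadjusted p below 0.05, and DESeq2 called 0.

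Wnt signalling acts on Paneth cells as well as on stem cells, and TCF factors bind the bases CTTTGAT, which read ATCAAAG on the other strand. This motif was searched on both strands in the 250 bases before the start of each gene in RefSeq's promoter table (GRCm38.p6). It occurred in 3.72% of 27025 genes. Among genes with a promoter entry it stood upstream of 2 of 14 Wnt target genes and 2 of 20 Lgr5 stem cell genes. Of 13 tested alpha-defensin rows, now with Gm15284, Gm14851 and AY761184, 4 had an entry and 3 of the 4 held the motif, namely Gm15284 (Defa30 in RefSeq), Defa21 and Defa22. The 150 bases before the start did not differ between Defa21 and Defa22, so the matches are not independent. The 150 bases before the start of a pair of these genes are shown with the motif in capitals, to let it be seen beside the fold changes; Gm15284 lies at chr8:21134500-21134649 and Defa22 at chr8:21162127-21162276, both on the plus strand.
Gm15284: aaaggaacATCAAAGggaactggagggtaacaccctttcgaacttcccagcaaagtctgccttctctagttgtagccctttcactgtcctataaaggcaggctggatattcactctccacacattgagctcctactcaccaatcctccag
Defa22: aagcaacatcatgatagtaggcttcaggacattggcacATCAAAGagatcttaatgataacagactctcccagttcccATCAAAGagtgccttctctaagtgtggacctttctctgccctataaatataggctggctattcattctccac
A match is a description of these letters and not a measured binding site. Gm15284 was among the 7 genes that exceeded 1% of the counts of a Paneth library, with 5.82% and 2.49% of them against 0.621% to 1.16% of those of the stem cell libraries.

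Most of the other granule products were higher in Paneth cells too, beside a background of 21.6% called higher. Of 20 tested, 17 were higher, with a list median of 2.26, and 11 were higher without Paneth replicate 1. Lyz1, lysozyme, was at 195157 and 131664 CPM in the Paneth libraries and at 24771, 22502 and 27149.7 in the stem cell libraries (2.72 ± 0.43, adjusted p = 9.38e-05). Lyz1 alone took 13.7% and 11.5% of the Paneth counts and 2.32% to 2.82% of the stem cell counts. Mmp7, the protease that activates alpha-defensins, lay at 4112 and 1220.1 CPM against 476, 361 and 494 (2.59 ± 0.43, adjusted p = 0.000147). Ang4, an antimicrobial ribonuclease, stood at 29642 and 18022 CPM against 2844, 1087 and 1970.3 (3.60 ± 0.68, adjusted p = 0.000424). In these 3 genes the groups did not overlap and Paneth replicate 1 was the higher. Nupr1 is counted in this list but is a stress-responsive nuclear protein and no granule product. It had the largest fold change of the list and differed several-fold within the Paneth group, at 1919 and 343 CPM against 44.8, 51.9 and 66.6 (4.38 ± 0.62, adjusted p = 3.76e-05). Spink4, which is also on the goblet marker list, was at 9193 and 4215 CPM against 1676, 587 and 1081 (2.59 ± 0.47, adjusted p = 0.000306). The antimicrobial lectins Reg3b and Reg3g were not called: Reg3b lay at 1004 and 392 CPM against 1625, 142 and 408 (adjusted p = 0.985) and Reg3g at 1859 and 346 against 696, 136 and 305 (adjusted p = 0.157). In both, stem cell replicate 1 lay several times above stem cell replicate 2. Lcn2, lipocalin 2, was the other uncalled product and lay below 2 CPM in the 5 libraries (-2.21 ± 0.91, adjusted p = 0.0605).

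Among 17 regulators of secretory lineages, 8 were higher and 3 lower (list median 0.63), and without Paneth replicate 1 the counts were 3 and 1 and the median 0.35. The shares over all genes tested were 21.6% higher and 19.1% lower. Klf4, a factor of postmitotic epithelial cells, stood at 68.2 and 50.95 CPM against 14.7, 17.7 and 16.03 (1.88 ± 0.34, adjusted p = 0.000315). Tcf7l2, a DNA-binding partner of beta-catenin, was at 83.5 and 60.9 CPM against 31.97, 39.2 and 42.6 (0.93 ± 0.19, adjusted p = 0.000917). Both were higher in each Paneth library than in any stem cell library. Spdef, a factor of goblet and Paneth maturation, lay at 100.02 and 50.8 CPM against 26.04, 36.1 and 26.7 (1.35 ± 0.34, adjusted p = 0.00375, and 0.129 without Paneth replicate 1). Xbp1, which drives growth of the secretory apparatus, stood at 618 and 391 CPM against 352, 269 and 279 (0.75 ± 0.19, adjusted p = 0.00373, and 0.159 without Paneth replicate 1). Sox9, needed for Paneth cells to form, was not called, at 317 and 252 CPM against 374, 545 and 425 (-0.66 ± 0.32, adjusted p = 0.114). The 3 lower regulators were Neurog3 (-2.49 ± 0.77, adjusted p = 0.0151), the factor that commits cells to the endocrine lineage, Foxa2 (-1.06 ± 0.31, adjusted p = 0.0109) and Rest (-0.70 ± 0.19, adjusted p = 0.00683). Without Paneth replicate 1 the adjusted p was 0.0629 for Neurog3 and 0.0543 for Rest, and without replicate 2 it was 0.113 for Neurog3 and 0.142 for Foxa2.

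The niche ligands were measured next, beginning with Wnt. Of 25 Wnt and R-spondin genes and their secretion factors, 11 were at 0 in the 5 libraries and 12 were tested. Wnt3 was the 1 that was called, beside a background of 21.6% called higher and 19.1% lower. Wnt3, the Wnt that Paneth cells supply to organoids, was at 117 and 55.8 CPM in the Paneth libraries and at 21.2, 25.9 and 22.3 in the stem cell libraries (1.90 ± 0.44, adjusted p = 0.00227). Each Paneth library lay above every stem cell library. Without Paneth replicate 1 the adjusted p was 0.0653 and the log2 fold change 1.27, and without replicate 2 the adjusted p was 0.00221. The Lgr5-GFP-DTR libraries held 114 and 61.8 CPM of Wnt3, close to the Paneth libraries (-0.02 ± 0.48, adjusted p = 1.0). Wls, which carries Wnt proteins to the cell surface, lay at 87.6 and 65.4 CPM against 65.5, 74.5 and 71.1, overlapping ranges (0.12 ± 0.30, adjusted p = 0.788). Porcn, which attaches their lipid, stood at 9.60 and 3.68 CPM against 6.13, 8.62 and 6.68 (-0.12 ± 0.37, adjusted p = 0.835). Wnt4, Wnt5a, Wnt5b, Wnt6 and Wnt9b did not exceed 5 CPM in any of the 5 libraries and were not called, but Wnt5b and Wnt9b were lower without Paneth replicate 1 (adjusted p = 0.0368 and 0.0144).

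Of 8 tested EGF family ligands, 4 were higher in Paneth cells (list median 1.56), beside a background of 21.6% called higher. The 4 were Egf, Areg, Hbegf and Epgn. Egf was at 18.4 and 8.05 CPM in the Paneth libraries and at 0, 1.80 and 1.92 in the stem cell libraries (3.38 ± 0.78, adjusted p = 0.00228). Its call held without either Paneth replicate (adjusted p = 0.031 and 0.0038). Areg lay at 152 and 54.9 CPM against 17.3, 27.9 and 33.9 (1.97 ± 0.44, adjusted p = 0.00167, and 0.0976 without Paneth replicate 1). Hbegf stood at 93.4 and 111 CPM against 35.3, 40.7 and 42.1 (1.38 ± 0.39, adjusted p = 0.00963, and 0.0655 without Paneth replicate 2). All 3 ligands were higher in each Paneth library than in any stem cell library. Epgn, named after its value was seen, stayed below 2 CPM and lost its call without Paneth replicate 2 (adjusted p = 0.753), when 2 of 9 ligands tested were higher. Tgfa, another ligand of the EGF receptor, was at 21.97 and 30.3 CPM against 5.86, 17.05 and 13.2 without overlap and was not called (adjusted p = 0.0641). Btc lay at 7.15 and 7.80 CPM against 11.99, 11.3 and 12.4 and was not called either (adjusted p = 0.266). Against the enteroendocrine libraries, which were released with the same enzyme as the Paneth cells, Egf was higher (3.10 ± 0.90, adjusted p = 0.0162), while Areg stood at 139 and 69.2 CPM and Hbegf at 131 and 79.4, with adjusted p of 0.996 and 0.96.

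Notch ligands act on the neighbouring cell. Of 5 tested, only Jag1 was called, beside a background of 21.6% called higher. Jag1 was at 10.7 and 14.4 CPM in the Paneth libraries and 4.82, 5.66 and 4.28 in the stem cell libraries (1.36 ± 0.24, adjusted p = 0.000284). Each Paneth library lay above every stem cell library. Dll4, with Dll1 the ligand that keeps stem cells from differentiating, stood at 53.4 and 19.2 CPM against 13.2, 22.3 and 14.3 and was not called (1.12 ± 0.44, adjusted p = 0.0508). The result turned on Paneth replicate 1: without replicate 2 the log2 fold change was 1.68 (adjusted p = 0.0136), and without replicate 1 it was 0.21 (adjusted p = 0.804). Dll1 was at 65.5 and 63.9 CPM against 48.6, 67.6 and 55.7, within the range of the stem cells (0.17 ± 0.28, adjusted p = 0.646). Jag2 lay at 3.07 and 4.93 CPM against 2.00, 2.12 and 1.18 (adjusted p = 0.193) and Dll3 at 10.4 and 13.1 against 6.96, 5.15 and 3.28 (adjusted p = 0.0769).

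**Figure D3:**
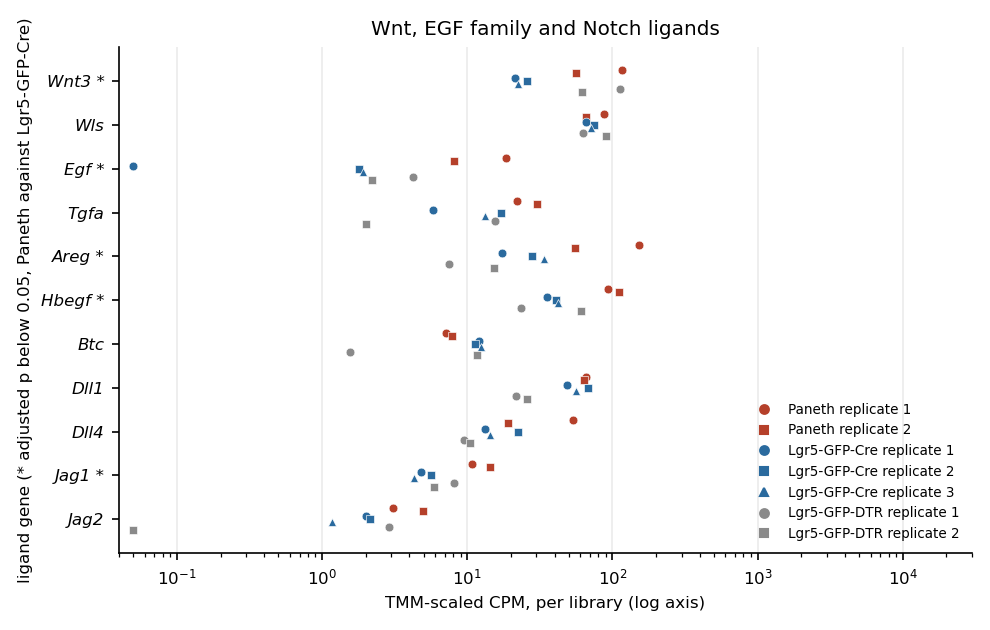
TMM-scaled CPM (log axis) of Wnt, EGF family and Notch ligands and of Wls in each Paneth, Lgr5-GFP-Cre and Lgr5-GFP-DTR library, 1 point per library; an asterisk marks an adjusted p below 0.05 against Lgr5-GFP-Cre, and levels of 0 are drawn at 0.05. The Paneth points of Wnt3, Egf, Areg, Hbegf and Jag1 lie to the right of all Lgr5-GFP-Cre points.

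The receptors of these ligands were found in both cell types. Of 18 tested Wnt receptors and surface modulators, 6 were higher and 2 lower (list median 0.44), beside a background of 21.6% higher and 19.1% lower. Without Paneth replicate 1, 4 were higher and 3 lower with a median of -0.02, and without Lgr5-GFP-Cre replicate 1 the counts were 4 and 2 and the median 0.24. The co-receptor Lrp6 stood at 52.7 and 63.3 CPM against 11.8, 21.6 and 21.1 (1.67 ± 0.22, adjusted p = 2.19e-05). The co-receptor Lrp5 was at 14.00 and 12.8 CPM against 5.51, 7.72 and 4.80 (1.16 ± 0.19, adjusted p = 0.000153). Lgr4, the R-spondin receptor related to Lgr5, lay at 194 and 129 CPM against 48.6, 84.3 and 79.1 (1.19 ± 0.25, adjusted p = 0.00093). All 3 were higher in each Paneth library than in any stem cell library, and each call held without either Paneth replicate. Fzd5, the frizzled needed for Paneth maturation, stood at 29.5 and 49.3 CPM against 19.1, 19.9 and 16.9 (1.09 ± 0.23, adjusted p = 0.00126, and 0.0719 without Paneth replicate 2). Fzd9 (1.61 ± 0.49) and Fzd4 (1.64 ± 0.55) were the other two higher genes, with adjusted p of 0.231 and 0.0848 without Paneth replicate 1 and of 0.011 and 0.0632 without replicate 2. Fzd2 was lower, at 4.29 and 3.37 CPM against 11.2, 12.1 and 10.7 (-1.57 ± 0.37, adjusted p = 0.00247), as was Ryk, an atypical Wnt receptor, at 31.6 and 40.96 against 76.3, 54.7 and 66.03 (-0.85 ± 0.19, adjusted p = 0.00184). Fzd7, the main frizzled of Lgr5 stem cells, was at 33.8 and 20.2 CPM against 34.2, 27.2 and 22.9 and was not called (adjusted p = 0.899). The ubiquitin ligases that remove Wnt receptors were not called: Rnf43 lay at 89.1 and 46.9 CPM against 56.1, 126 and 92.6 and Znrf3 at 14.1 and 11.3 against 16.8, 20.2 and 19.2.

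Of 12 EGF receptor and feedback genes, 2 were higher and 1 lower (list median 0.00), beside a background of 21.6% higher and 19.1% lower. Egfr stood at 27.2 and 25.2 CPM against 20.05, 29.9 and 26.1 and was not called (adjusted p = 0.934). Erbb2 was at 148 and 124 CPM against 83.3, 134 and 106 (adjusted p = 0.192). Erbb3, the kinase-impaired partner of Erbb2 and receptor of neuregulins, was higher, at 173 and 151 CPM against 27.6, 81.3 and 53.9 (1.58 ± 0.33, adjusted p = 0.000928), and the groups did not overlap. Errfi1, a feedback inhibitor of EGFR, lay at 172 and 57.4 CPM against 28.1, 40.5 and 39.5 (1.67 ± 0.40, adjusted p = 0.00296, and 0.236 without Paneth replicate 1). Etv4, a target of ERK signalling, was lower, at 2.04 and 1.69 CPM against 5.58, 5.47 and 4.45 (-1.47 ± 0.40, adjusted p = 0.00632, and 0.0667 without Paneth replicate 2). Lrig1, an EGF receptor inhibitor also used as a stem cell marker, stood at 176 and 76.9 CPM against 111, 154 and 123, with the Paneth libraries on either side of the stem cell range. Without Paneth replicate 1 the counts were 1 higher and 2 lower, as Spry1 was then lower (adjusted p = 0.0121).

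Of 16 Notch receptor and modifier genes, 4 were higher and 2 lower (list median 0.37, and 0.10 without Paneth replicate 2). The shares over all genes tested were 21.6% higher and 19.1% lower. Notch1, the main receptor of the crypt, was at 45.5 and 36.8 CPM against 25.01, 42.4 and 33.1 and was not called (0.29 ± 0.28, adjusted p = 0.426). Notch2 was higher, at 29.1 and 16.8 CPM against 3.31, 7.98 and 4.63 (2.11 ± 0.52, adjusted p = 0.00341). Notch4 was higher too, at 17.6 and 7.49 CPM against 3.24, 2.57 and 2.49 (2.17 ± 0.46, adjusted p = 0.00114). Neither overlapped between the groups. Mib1, which makes ligands active in the sending cell, lay at 18.2 and 20.5 CPM against 3.51, 7.08 and 7.47 (1.68 ± 0.30, adjusted p = 0.000244), and Adam10, which cuts ligand-bound Notch, at 100.2 and 133 against 33.3, 44.97 and 50.1 (1.45 ± 0.33, adjusted p = 0.00206). The lower genes were Lfng, a sugar transferase that modifies Notch (-0.86 ± 0.30, adjusted p = 0.0288), and Psen2, a subunit of gamma-secretase (-0.73 ± 0.22, adjusted p = 0.0121). Neither was called without Paneth replicate 2 (adjusted p = 0.17 and 0.128) or without Lgr5-GFP-Cre replicate 1, and Lfng was not called without Paneth replicate 1 either (adjusted p = 0.0686).

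Part of the genes listed as Notch targets were lower in the Paneth cells. Of 9 tested, 4 were called lower and 5 did not pass, with a list median of -1.35 and single genes from -2.31 to 1.96, and 2 were lower without Paneth replicate 1. The background was 19.1% lower and 21.6% higher. Against Lgr5-GFP-DTR, where it was 17.4% lower and 20.2% higher, 3 of the 9 were lower and 3 higher. Hes1, the repressor through which Notch blocks the secretory fate, stood at 94.4 and 44.2 CPM in the Paneth libraries and at 244, 203 and 222 in the stem cell libraries (-1.69 ± 0.38, adjusted p = 0.00197). Hes6, which antagonizes Hes1 and whose response to Notch was not tested, was also lower, at 108 and 54.2 CPM against 255, 209 and 201 (-1.46 ± 0.29, adjusted p = 0.000727). Nrarp, a feedback inhibitor of Notch, was at 22.8 and 30.5 CPM against 94.9, 89.8 and 82.3 (-1.74 ± 0.47, adjusted p = 0.00698, and 0.0683 without Paneth replicate 1). In all 3 genes both Paneth libraries lay below every stem cell library. Hes5 was lower at levels below 2 CPM (-2.31 ± 0.83, adjusted p = 0.0343, and 0.189 without Paneth replicate 1 and 0.067 without replicate 2). Olfm4, a Notch target and stem cell marker, lay at 2403 and 1489.8 CPM against 4126, 5802 and 4934 without overlap and was not called (-1.35 ± 0.65, adjusted p = 0.104).

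Of 22 Wnt target genes, 2 were higher and 5 lower (list median -0.49, and -0.15 without Paneth replicate 2 and -0.31 without Lgr5-GFP-Cre replicate 2). Over all genes tested, 21.6% were called higher and 19.1% lower. The lower 5 were Sp5, Myc, Ascl2, Cdca7 and Tcf7. Sp5, a direct target of beta-catenin, stood at 22.1 and 14.99 CPM against 67.9, 98.3 and 68.9 (-2.08 ± 0.28, adjusted p = 2.52e-05). Myc was at 117 and 63.3 CPM against 428, 380.2 and 336 (-2.08 ± 0.31, adjusted p = 6.27e-05). Both Paneth libraries lay well below the stem cell range for Sp5 and Myc. Tcf7 had a log2 fold change of -1.26 ± 0.33 (adjusted p = 0.0054, and 0.0967 without Paneth replicate 2). The higher genes were Prox1 (3.68 ± 0.57, adjusted p = 8.37e-05), at 7.97 and 10.6 CPM against 0.758, 0.708 and 0.699, and Nkd1 (0.90 ± 0.34, adjusted p = 0.0441, and 0.558 without Paneth replicate 1), an inhibitor of Dishevelled, which was not called either when any 1 of the Lgr5-GFP-Cre libraries was left out. Prox1 is also expressed in enteroendocrine and tuft cells, and stood at 4.63 and 14.2 CPM in the enteroendocrine libraries. Axin2, a widely used reporter of Wnt signalling, lay at 49.96 and 24.4 CPM against 38.99, 42.7 and 38.6 and was not called (-0.12 ± 0.27, adjusted p = 0.771).

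The background for the lists of this paragraph is 19.1% lower and 21.6% higher. Among 30 genes known from Lgr5 stem cells, 11 were lower and 1 higher in the Paneth cells (list median -0.81), and 18 did not pass. Without Paneth replicate 2 the number lower was 8 and the median -0.51. Ascl2, the transcription factor that sets the Lgr5 stem cell state, stood at 46.3 and 21.4 CPM in the Paneth libraries and at 263, 185 and 178 in the stem cell libraries (-2.63 ± 0.41, adjusted p = 8.56e-05). Igfbp4, a secreted binding protein of insulin-like growth factors, was at 81.02 and 46.1 CPM against 283, 308 and 256 (-2.15 ± 0.30, adjusted p = 3.38e-05). Gkn3 lay at 22.99 and 18.9 CPM against 166, 103 and 145 (-2.72 ± 0.56, adjusted p = 0.000937). None of these 3 genes overlapped between the groups, and Paneth replicate 2 was the lower Paneth library in each. Smoc2, a matricellular protein, stood at 286 and 216 CPM against 611, 747 and 667 (-1.43 ± 0.26, adjusted p = 0.000289), and Cdca7 at 237 and 159 against 699.8, 593 and 550.2 (-1.64 ± 0.29, adjusted p = 0.000282). Slc12a2, a chloride transporter, was at 812 and 722 CPM against 733, 857 and 848 and was not called (-0.08 ± 0.23, adjusted p = 0.809), and Prom1 was not called either (0.05 ± 0.32, adjusted p = 0.929). Jun, the 1 higher gene, is also an immediate early gene, and its adjusted p was 0.0779 without Paneth replicate 1. Of 6 genes reported as markers of cells at position +4, Bmi1 was higher (0.64 ± 0.16, adjusted p = 0.00403), at 30.4 and 28.8 CPM against 18.1, 20.1 and 18.9. Hopx (-0.69 ± 0.20) and Clu (-1.75 ± 0.48) were lower, with an adjusted p of 0.0792 for Hopx without Paneth replicate 2 and of 0.0656 for Clu without replicate 1. Leaving out Lgr5-GFP-Cre replicate 1 also left 1 of the 6 lower.

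**Figure D4:**
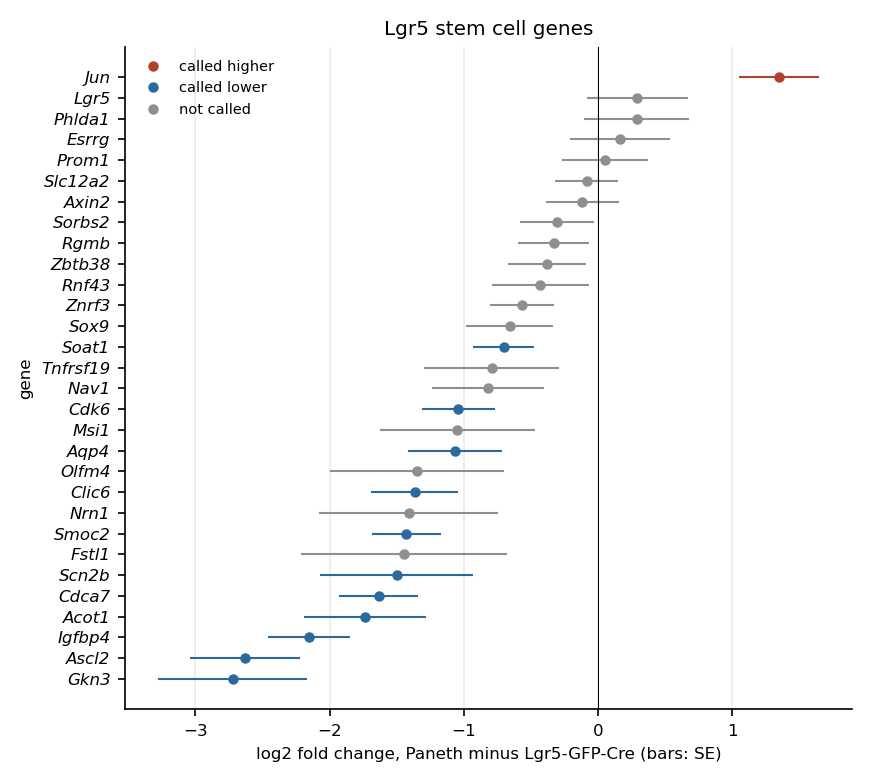
Log2 fold change, Paneth minus Lgr5-GFP-Cre, of 30 Lgr5 stem cell genes, with bars of 1 standard error. The genes run from Gkn3 at -2.72 to Jun at 1.35, and 11 are called lower. Lgr5, of which the stem cells carry a disrupted copy, lies at 0.29.

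Most genes of the replication machinery were lower in Paneth cells. Of 35 DNA replication genes, 31 were called lower, with a list median of -1.23, beside a background of 19.1% called lower. Rpa2, a subunit of the protein that coats single-stranded DNA, lay at 29.8 and 32.1 CPM in the Paneth libraries and at 128, 103 and 108 in the stem cell libraries (-1.86 ± 0.22, adjusted p = 6.35e-06). Rfc4, a subunit of the clamp loader, stood at 19.1 and 16.6 CPM against 105, 62.8 and 87.5 (-2.25 ± 0.28, adjusted p = 1.02e-05). Mcm5, a subunit of the replicative helicase, was at 68.8 and 52.3 CPM against 241, 238 and 201 (-1.91 ± 0.24, adjusted p = 1.44e-05). The groups were far apart in all 3 genes. Of the 4 that did not pass, Mcm4 lay at 88.1 and 65.1 CPM against 91.3, 111 and 102 (adjusted p = 0.169) and Dnmt1 at 95.7 and 54.8 against 65.3, 113 and 94.6 (adjusted p = 0.463). Summed over the list, the level was 1799 and 1613 CPM in the Paneth libraries and 3622 to 3928 in the stem cell libraries. It was 1649 and 1397 CPM in the enteroendocrine libraries.

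E2F factors, which switch on replication genes before S phase, bind sites such as TTTCCCGC and TTTGGCGC (GCGCCAAA on the other strand). At least 1 of the 2 stood, on either strand, in the 250 upstream bases of 6 of the 29 replication genes with a promoter entry (20.7%), of 0 of 29 mitosis genes and of 1.51% of all genes. The called genes among the 6 were Mcm5, Mcm6, Mcm7, Gins3 and Cdc6, chosen here for the motif. The 150 bases before the start of Mcm5 and Mcm6 show it in capitals, Mcm5 at chr8:75109359-75109508 on the plus strand and Mcm6 at chr1:128359706-128359855 on the minus strand.
Mcm5: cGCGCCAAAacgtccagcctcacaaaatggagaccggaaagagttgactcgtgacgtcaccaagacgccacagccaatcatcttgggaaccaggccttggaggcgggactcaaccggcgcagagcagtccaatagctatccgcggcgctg
Mcm6: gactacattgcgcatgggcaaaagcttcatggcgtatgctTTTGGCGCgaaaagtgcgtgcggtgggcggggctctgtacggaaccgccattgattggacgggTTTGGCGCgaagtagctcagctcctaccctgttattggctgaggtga
Mcm6, which carries a pair of matches, stood at 172 and 164 CPM in the Paneth libraries and at 334, 346 and 331 in the stem cell libraries (-1.004 ± 0.24, adjusted p = 0.00304).

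Mitotic genes were divided. Of 32, 14 were lower and 1 higher (list median -0.41), and 9 were lower without Paneth replicate 1. The background against Lgr5-GFP-Cre was 21.6% called higher and 19.1% lower. Cdc20, the activator of anaphase, was at 84.5 and 99.7 CPM against 258, 274 and 251 (-1.50 ± 0.22, adjusted p = 5.47e-05). Plk1, a mitotic kinase, lay at 66.4 and 42.9 CPM against 134, 166 and 139 (-1.42 ± 0.26, adjusted p = 0.000327). Cenpa, the centromeric histone, stood at 44.3 and 56.9 CPM against 163, 116 and 154 (-1.51 ± 0.26, adjusted p = 0.000179). In these 3 genes the Paneth libraries lay below the stem cells, whereas Mki67, the antigen of proliferating cells, stood above them at 125 and 151 CPM against 92.7, 104 and 97.1 (0.49 ± 0.19, adjusted p = 0.0467). The Mki67 call was lost without Paneth replicate 2 (adjusted p = 0.308), without Paneth replicate 1 (adjusted p = 0.0513) and without Lgr5-GFP-Cre replicate 1 or 3. Top2a was at 119 and 169 CPM against 110.2, 124 and 127 and was not called (0.26 ± 0.20, adjusted p = 0.328). Against enteroendocrine cells, 13 of the 32 were higher in Paneth cells, beside a background of 14.0% higher, 15.4% lower and 29.4% called in that comparison. Of 11 cell cycle inhibitors, 5 were higher and 1 lower than in Lgr5-GFP-Cre cells (list median 0.36, and 0.70 without Paneth replicate 1). Those counts stand beside the 21.6% and 19.1% of that comparison. Rb1, the retinoblastoma protein, which binds E2F, lay at 66.9 and 85.7 CPM against 11.6, 12.6 and 14.1 (2.58 ± 0.26, adjusted p = 1.31e-06). Cdkn2b, an inhibitor of CDK4 and CDK6, stood at 62.9 and 104 CPM against 14.7, 26.4 and 24.2 (1.94 ± 0.28, adjusted p = 4.54e-05). Cdkn1a, the p21 inhibitor, was at 141 and 142 CPM against 44.5, 57.1 and 65.4 (1.34 ± 0.31, adjusted p = 0.00191). Each Paneth library exceeded every stem cell library in these 3. Cdkn1b was the lower one (-0.47 ± 0.18, adjusted p = 0.0462, and 0.251 without Paneth replicate 1 and 0.07 without replicate 2).

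Secretory proteins enter the endoplasmic reticulum (ER), where they are folded, and pass through the Golgi to granules. Paneth cells were higher in part of each step, beside a background of 21.6% of all genes tested called higher and 19.1% lower. Of 29 genes of ER translocation and N-glycosylation, 11 were higher and 2 lower (list median 0.27), where the lower genes were Ssr2 and Ddost. Neither was called without Lgr5-GFP-Cre replicate 1 or Paneth replicate 1, and 1 of them was without Lgr5-GFP-Cre replicate 3 or Paneth replicate 2. The median was 0.03 without Paneth replicate 1, 0.08 without Lgr5-GFP-Cre replicate 2, and 0.44 without Lgr5-GFP-Cre replicate 1 or Paneth replicate 2, and in a fit of the 5 compared libraries alone 7 genes were higher. Ssr3, a subunit of the translocon-associated complex, lay at 437 and 457 CPM in the Paneth libraries and at 166, 153 and 163 in the stem cell libraries (1.48 ± 0.14, adjusted p = 6.66e-07). Spcs3, a subunit of signal peptidase, stood at 312 and 342 CPM against 99.9, 107 and 116 (1.60 ± 0.16, adjusted p = 1.09e-06). Replicates lay close together in both genes and the groups far apart. Rpn1, a subunit of the oligosaccharyl transferase, was not called, at 481 and 490.0 CPM against 622, 573 and 554 (-0.26 ± 0.16, adjusted p = 0.203).

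Of 29 ER chaperones and disulfide enzymes, 17 were higher and 1 lower (list median 0.53), and 11 were higher without Paneth replicate 1 and also without Lgr5-GFP-Cre replicate 2 or with the 5 libraries alone. The same background of 21.6% higher and 19.1% lower holds here. Dnajc3, a co-chaperone that also inhibits the kinase PERK, was at 322 and 261 CPM against 98.1, 84.03 and 91.5 (1.68 ± 0.15, adjusted p = 3.91e-07). Canx, the lectin chaperone calnexin, lay at 593 and 627 CPM against 294, 242 and 304 (1.12 ± 0.15, adjusted p = 1.71e-05). Uggt1, which marks misfolded glycoproteins for another round with calnexin, stood at 179 and 174 CPM against 72.3, 78.2 and 68.8 (1.27 ± 0.14, adjusted p = 2.61e-06). The groups did not overlap in any of these 3. Pdia6, a disulfide isomerase, was not called, at 585 and 392 CPM against 483, 387 and 416 (0.19 ± 0.22, adjusted p = 0.519). The 1 lower gene was Erp29 (-0.66 ± 0.25, adjusted p = 0.0419, and 0.474 without Paneth replicate 1), which was not called without Lgr5-GFP-Cre replicate 1 or 3 either.

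Many ER chaperone genes carry the ER stress element, a CCAAT box and a CCACG box at a fixed spacing, through which ATF6 and XBP1 act. It stood on either strand in the 250 upstream bases of 8 of the 26 chaperone genes with a promoter entry (30.8%) and of 0.13% of all genes. The 8 were Hspa5, Hsp90b1, Calr, Canx, Pdia6, Dnajc3, Creld2 and Ero1lb, of which Pdia6 and Creld2 were not called. Of 21 genes of the unfolded protein response and ER degradation with an entry, 2 held it, Derl3 and Syvn1, and neither was called. The element is shown in capitals in the 150 bases before the start of Dnajc3, at chr14:118937782-118937931 on the plus strand, and of Canx, at chr11:50325674-50325823 on the minus strand, the 2 of lowest adjusted p.
Dnajc3: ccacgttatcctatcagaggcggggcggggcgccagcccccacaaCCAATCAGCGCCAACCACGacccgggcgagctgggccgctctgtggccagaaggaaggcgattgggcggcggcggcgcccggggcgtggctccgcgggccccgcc
Canx: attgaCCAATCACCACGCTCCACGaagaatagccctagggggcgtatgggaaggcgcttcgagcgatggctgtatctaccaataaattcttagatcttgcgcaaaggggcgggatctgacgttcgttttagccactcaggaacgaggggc
Hspa5, the ER chaperone BiP, was at 1105 and 1041 CPM in the Paneth libraries and at 842, 540.2 and 567 in the stem cell libraries (0.72 ± 0.23, adjusted p = 0.0177, and 0.079 without Paneth replicate 1 and 0.0552 without replicate 2).

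The unfolded protein response and ER degradation list had 16 of 24 members higher (list median 1.15), beside a background of 21.6% called higher. Without Paneth replicate 1, 7 were higher and the median was 0.37, and with the 5 libraries alone 10 were higher. Edem3, a mannosidase that sends glycoproteins to degradation, lay at 97.7 and 94.8 CPM against 9.44, 9.39 and 11.1 (3.27 ± 0.22, adjusted p = 3.14e-08). Ern1, the sensor IRE1 alpha, stood at 23.8 and 26.5 CPM against 3.79, 5.85 and 3.14 (2.57 ± 0.25, adjusted p = 8.35e-07). Atf6, the transmembrane factor cleaved on ER stress, was at 63.7 and 61.2 CPM against 13.9, 21.4 and 16.3 (1.86 ± 0.24, adjusted p = 1.38e-05). The Paneth replicates lay close to each other in all 3. Sel1l, a subunit of the retrotranslocation complex, lay at 218 and 189 CPM against 60.6, 70.1 and 64.8 (1.64 ± 0.16, adjusted p = 8.56e-07). Os9, a lectin of the same complex, was not called, at 301 and 144 CPM against 153, 273 and 204 (adjusted p = 0.831).

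Of 33 genes of ER to Golgi transport, 19 were higher and 1 lower (list median 0.57). For the 2 lists of this paragraph the background is 21.6% higher and 19.1% lower. Sec16a, which organizes ER exit sites, stood at 129 and 103 CPM against 22.3, 29.1 and 23.5 (2.22 ± 0.18, adjusted p = 1.5e-07). Lman1, a cargo receptor, was at 198 and 201 CPM against 70.3, 75.3 and 82.7 (1.39 ± 0.15, adjusted p = 1.82e-06). Sec24d, a cargo-selecting subunit of the COPII coat, lay at 175 and 208 CPM against 31.3, 54.1 and 40.2 (2.19 ± 0.26, adjusted p = 7.53e-06). No stem cell library reached a Paneth library in these 3. The lower gene was Sec13 (-0.52 ± 0.17, adjusted p = 0.0232, 0.135 without Paneth replicate 1 and 0.0607 without replicate 2), and it was not called without Lgr5-GFP-Cre replicate 1. Without Lgr5-GFP-Cre replicate 2, 2 genes of the list were lower. The bases TGACGTGG, a site for XBP1 and ATF6, stood upstream of 4 of the 29 genes with an entry (13.8%), Sec24d, Sec16b, Copb1 and Kdelr3, and of 0.603% of all genes. Of 27 genes of regulated exocytosis, 15 were higher (list median 0.79, and 1.27 and 1.23 without Lgr5-GFP-Cre replicates 2 and 3). Sytl2, an effector that links Rab27 granules to the membrane, stood at 76.01 and 45.7 CPM against 2.62, 5.53 and 2.58 (4.09 ± 0.40, adjusted p = 9.83e-07). Rab27a, the granule GTPase, was at 32.8 and 38.4 CPM against 1.58, 4.44 and 3.97 (3.40 ± 0.37, adjusted p = 2.92e-06), and Rab27b at 112 and 118 against 26.1, 21.9 and 27.1 (2.20 ± 0.27, adjusted p = 8.87e-06). All 3 were higher in both Paneth libraries. Vamp8, a granule SNARE, was not called, at 126 and 130.5 CPM against 196, 108 and 154 (adjusted p = 0.345). Against enteroendocrine cells, another regulated secretory type, the list median of exocytosis genes was -0.21 and that of ER to Golgi genes 0.62.

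Paneth granules are rich in zinc. Of 23 genes of zinc and metal handling, 11 were higher and 3 lower (list median 0.48), beside a background of 21.6% higher and 19.1% lower. With the 5 libraries alone, 7 were higher and 1 lower, where 2222 and 1626 of all 12570 genes tested were. The lower genes were Slc39a5, Slc39a2 and Slc39a3, and 1 was lower without Paneth replicate 2 or without Lgr5-GFP-Cre replicate 3. Slc30a4, an exporter that loads vesicles with zinc, lay at 53.2 and 84.6 CPM against 18.05, 17.05 and 22.01 (1.86 ± 0.25, adjusted p = 1.89e-05). Slc39a10, a zinc importer, stood at 26.5 and 33.3 CPM against 8.89, 6.18 and 7.86 (1.97 ± 0.27, adjusted p = 2.97e-05), and Slc30a7, an exporter into the Golgi, at 75.1 and 77.8 against 35.6, 40.3 and 40.97 (0.97 ± 0.16, adjusted p = 0.000171). The groups did not overlap. Slc39a5, an importer of the basolateral membrane, was at 131 and 90.5 CPM against 245, 311 and 236 (-1.26 ± 0.22, adjusted p = 0.000207). Mt1, a metallothionein, spread widely in the stem cell libraries, at 172 and 120.3 CPM against 422, 118 and 224, and was not called (adjusted p = 0.221).

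Most genes of cytosolic ribosomal proteins were lower in Paneth cells, though how many were called depended on the libraries in the fit. Of 80 tested, 64 were called lower, with a list median of -1.04. Rpsa lay at 521 and 355 CPM against 1955, 1061 and 1300.5 (-1.72 ± 0.28, adjusted p = 0.000108). Rplp0 stood at 993 and 839.7 CPM against 3152, 1754 and 2152 (-1.36 ± 0.25, adjusted p = 0.000312). Rps3 was at 441 and 430.0 CPM against 1755, 781 and 1169 (-1.50 ± 0.26, adjusted p = 0.00018). In each, Lgr5-GFP-Cre replicate 1 was the highest stem cell library and replicate 2 the lowest, and both Paneth libraries lay below all 3. Summed over the list, the level was 25117 and 21756 CPM in the Paneth libraries and 75101, 29515 and 47575 in Lgr5-GFP-Cre replicates 1, 2 and 3. The number lower was 34 without Lgr5-GFP-Cre replicate 1, 42 without Paneth replicate 1, 29 without Paneth replicate 2, and 17 of 79 with the 5 compared libraries alone. The list median was -0.62 without Lgr5-GFP-Cre replicate 1. Of 75 genes of oxidative phosphorylation, 21 were lower and 1 higher (list median -0.54), beside the background of 19.1% called lower. The number lower was 58 without Lgr5-GFP-Cre replicate 2, 12 without Lgr5-GFP-Cre replicate 1, 8 without Paneth replicate 1, and 4 with the 5 libraries alone. The median was -0.15 without Lgr5-GFP-Cre replicate 1 and -0.32 without Paneth replicate 1. Uqcrc1, a core subunit of complex III, was at 790.3 and 948 CPM against 1835, 1438 and 1552 (-0.89 ± 0.18, adjusted p = 0.00081). It was lower in each Paneth library than in any stem cell library. Cox7a1 was the higher gene (1.42 ± 0.40, adjusted p = 0.00937, and 0.332 without Paneth replicate 2).

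Paneth cells are known for glycolysis that supplies lactate to stem cells. Of 29 genes of glycolysis and lactate, 5 were higher and 2 lower (list median -0.06, and -0.36 without Paneth replicate 2), and the other 22 were not called. The background for the lists of this paragraph is 21.6% higher and 19.1% lower. Ldha, which makes lactate, stood at 1505 and 2557 CPM against 2205, 1781 and 1857 and was not called (0.06 ± 0.24, adjusted p = 0.876). Pfkp, the platelet form of phosphofructokinase, was at 158 and 254 CPM against 61.9, 70.97 and 64.7 (1.64 ± 0.28, adjusted p = 0.000172). Hk1, a hexokinase, lay at 14.9 and 12.8 CPM against 2.07, 3.54 and 2.75 (2.31 ± 0.43, adjusted p = 0.000406). Both were higher in each Paneth library. Pdk1 and Pdk4, kinases that keep pyruvate out of mitochondria, had log2 fold changes of 0.90 ± 0.22 (adjusted p = 0.00307) and 2.06 ± 0.49 (adjusted p = 0.00278, and 0.0505 without Paneth replicate 2). Pfkfb3, an activator of phosphofructokinase, was the fifth, at 11.3 and 23.2 CPM against 1.52, 1.35 and 1.70 (3.50 ± 0.42, adjusted p = 8.39e-06). Tpi1 (-0.76 ± 0.20, adjusted p = 0.0049, and 0.0931 without Paneth replicate 1) and Ldhb (-2.11 ± 0.56, adjusted p = 0.0059) were lower, and without Lgr5-GFP-Cre replicate 2 the number lower was 4. Of 21 genes of fatty acid oxidation and ketogenesis, 3 were higher (Ppargc1a, Cpt1a and Ppard) and 5 lower (Acaa2, Etfb, Acads and Hadhb among them), with a list median of -0.16. The counts were 5 and 1 without Paneth replicate 1 (median 0.14), and 1 and 8 without replicate 2 (median -0.51). Ppargc1a, a coactivator of mitochondrial genes, was higher, at 28.6 and 32.9 CPM against 6.96, 11.3 and 11.01 (1.65 ± 0.31, adjusted p = 0.000418). Of 5 genes of cyclic ADP-ribose and NAD metabolism, Nampt was called higher (1.01 ± 0.21, adjusted p = 0.00104, and 0.097 without Paneth replicate 2, when 1 other gene of the 5 was lower).

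Ephs and ephrins keep Paneth cells at the crypt base. Of 15 tested, 2 were higher and 3 lower (list median -0.10), beside a background of 21.6% higher and 19.1% lower. Efnb2, a ligand of EphB receptors, stood at 38.4 and 49.6 CPM in the Paneth libraries and at 4.41, 3.15 and 4.72 in the stem cell libraries (3.42 ± 0.34, adjusted p = 1.01e-06). Efna4 was lower, at 17.8 and 15.3 CPM against 75.8, 66.98 and 69.05 (-2.10 ± 0.28, adjusted p = 2.19e-05), and so was Efna3, at 4.19 and 5.62 against 24.8, 17.4 and 15.5 (-1.96 ± 0.37, adjusted p = 0.000408). The groups lay apart in all 3 genes. Ephb3, the receptor that positions Paneth cells, was at 159 and 57.9 CPM against 62.5, 117 and 78.4 and was not called (0.33 ± 0.38, adjusted p = 0.518). Epha2 was higher (0.99 ± 0.39, adjusted p = 0.0499, and 0.504 without Paneth replicate 1, and not called without Lgr5-GFP-Cre replicate 1 or 3), and Ephb4 lower (-0.88 ± 0.29, adjusted p = 0.0222, 0.0524 without Paneth replicate 1 and 0.154 without replicate 2). Of 25 genes of microbe sensing and autophagy, 7 were higher and 1 lower (list median 0.24), and 4 were higher without Paneth replicate 2. The median was 0.14 without Lgr5-GFP-Cre replicate 3 and 0.01 without Paneth replicate 1. The same background of 21.6% higher and 19.1% lower holds for this list. Il22ra1, the receptor of interleukin 22 that induces antimicrobial genes, lay at 34.5 and 33.4 CPM against 3.72, 12.7 and 8.73 (2.01 ± 0.35, adjusted p = 0.00023). Tlr3, a sensor of double-stranded RNA, stood at 15.4 and 30.9 CPM against 5.03, 6.11 and 5.59 (2.06 ± 0.27, adjusted p = 1.82e-05). Each Paneth library lay above every stem cell library in both. Atg16l1, an autophagy gene that shapes Paneth granules, was the lower one, at 28.3 and 24.9 CPM against 33.4, 41.7 and 39.1 (-0.52 ± 0.17, adjusted p = 0.021, and 0.158 without Paneth replicate 2), and was not called without Lgr5-GFP-Cre replicate 2.

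Immediate early genes respond within minutes to handling and dissociation, and the enzyme differed between the groups. The background against Lgr5-GFP-Cre was 21.6% called higher and 19.1% lower. Of 22 immediate early and heat shock genes, 11 were higher and 1 lower in Paneth cells (list median 0.85), and 5 were higher without Paneth replicate 1 (median 0.56), 7 without Lgr5-GFP-Cre replicate 1 and 7 with the 5 libraries alone. The median was 1.33 without Paneth replicate 2. Klf6 was at 640.5 and 324 CPM in the Paneth libraries and at 64.1, 92.5 and 90.8 in the Lgr5-GFP-Cre libraries (2.55 ± 0.26, adjusted p = 1.62e-06). Fosb lay at 283 and 106 CPM against 24.8, 30.4 and 31.7 (2.74 ± 0.37, adjusted p = 2.24e-05). Atf3 stood at 1482 and 370.3 CPM against 161, 222 and 211 (2.23 ± 0.38, adjusted p = 0.000173). Paneth replicate 1 was the higher library in all 3, and both replicates exceeded the stem cells. Hspa8, a constitutive heat shock protein, was lower, at 1084 and 1539 CPM against 3927, 1861 and 2096 (-1.003 ± 0.31, adjusted p = 0.0148, and 0.142 without Paneth replicate 1). Fos was not called, at 2116 and 1313 CPM against 607, 1203 and 972 (adjusted p = 0.0834). Against the enteroendocrine libraries, released with Dispase as the Paneth cells were, the list median was 0.22 and 0 of 22 genes were called by edgeR's quasi-likelihood test, with 3 at an unadjusted p below 0.05, while DESeq2 called 1. Klf6 stood at 408 and 289 CPM in those libraries, Fosb at 294 and 158 and Atf3 at 757 and 422. Against the Lgr5-GFP-DTR libraries, released with TrypLE, the list median was 0.85, with 9 genes higher and 2 lower. Summed over the list, the level was 14970 and 9156 CPM in the Paneth libraries and 6955 to 8090 in the Lgr5-GFP-Cre libraries. It was 9456 and 10725 CPM in the Lgr5-GFP-DTR libraries and 11116 and 8392 in the enteroendocrine libraries. Goblet cell libraries, also released with Dispase, held 3979 and 4062 CPM. The part of the enzyme in the difference from the stem cells was not tested.

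**Figure D5:**
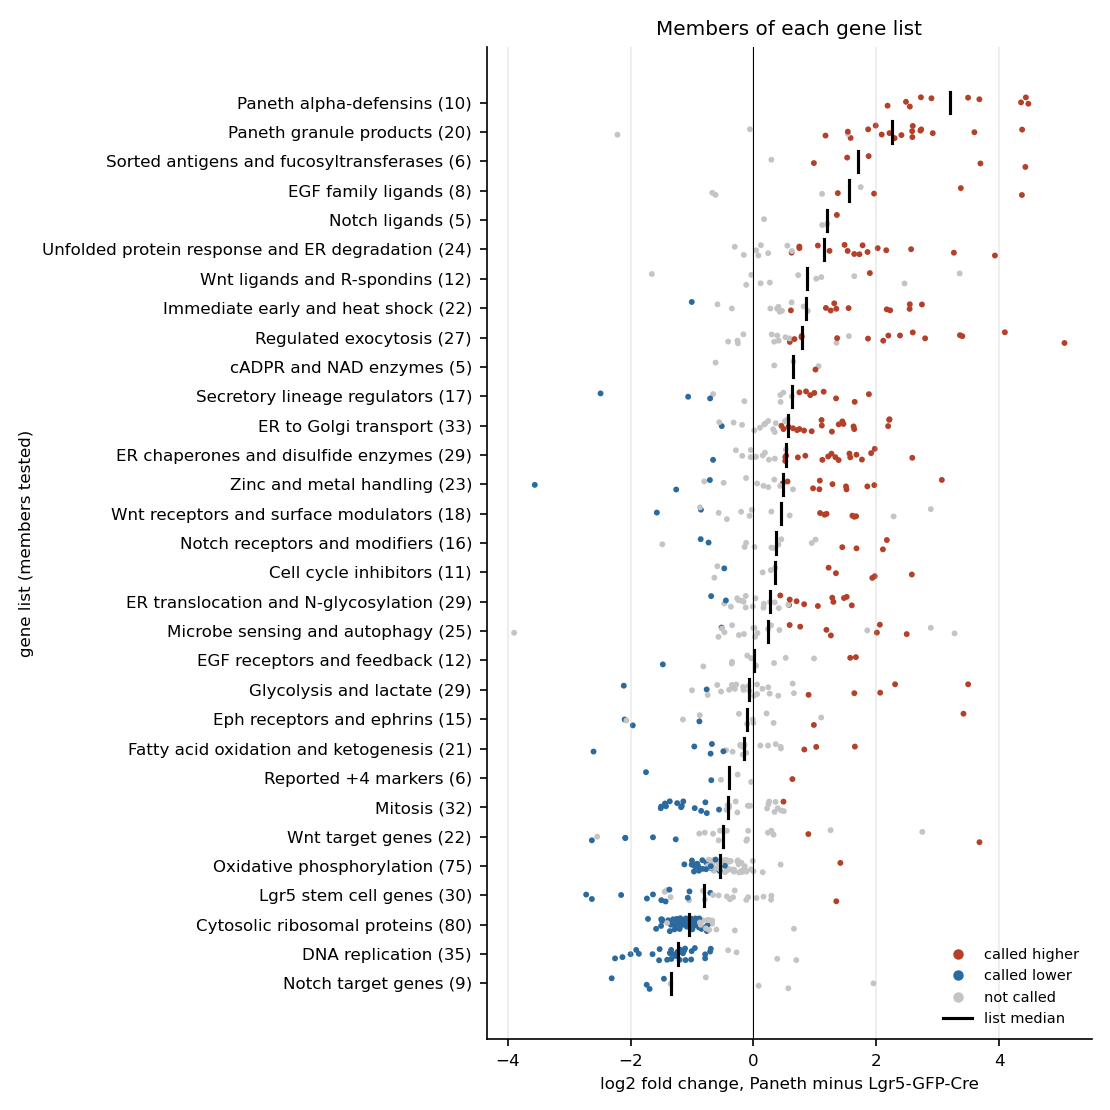
Log2 fold change, Paneth minus Lgr5-GFP-Cre, of each tested member of 31 gene lists, coloured by its call, with a bar at the list median. List medians run from 3.20 for alpha-defensins to -1.35 for Notch targets, beside 0.01 over all genes tested.

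Against the second stem cell line, Lgr5-GFP-DTR, 5580 genes (37.6%) were called, 2999 (20.2%) higher and 2581 (17.4%) lower in Paneth cells. Those libraries carried Paneth and tuft cell RNA: the Paneth markers summed to 145973 and 111116 CPM and the tuft markers to 1438 and 2097. Lyz1 stood at 116254 and 91800 CPM there and was not called (0.65 ± 0.47, adjusted p = 0.283), and Mmp7 stood at 3349 and 1921 CPM (0.02 ± 0.47, adjusted p = 1.0). Of the 20 granule products, 4 were higher against this line, and the list median was 0.37. Of the ER chaperones, 6 were higher and 7 lower (list median -0.30), and of the translocation and N-glycosylation genes 5 were higher and 9 lower (list median -0.34), both medians of the opposite sign to those against Lgr5-GFP-Cre. Of the 35 replication genes, 20 were lower and 3 higher, with a list median of -0.76, and Mcm5 stood at 123 and 112 CPM (-0.96 ± 0.25, adjusted p = 0.00664). Of the 80 ribosomal protein genes, 62 were lower (list median -1.14). Of the 30 stem cell genes, 5 were lower and 2 higher (list median -0.35). Ascl2 stood at 184 and 68.7 CPM, above both Paneth libraries (-1.91 ± 0.42, adjusted p = 0.00199). Areg (3.17 ± 0.54, adjusted p = 0.000277) and Hbegf (1.28 ± 0.45, adjusted p = 0.0314) were higher against this line as well, and Egf was not called (2.02 ± 0.87, adjusted p = 0.0738). As both comparisons use the same 2 Paneth libraries, their values are set side by side and do not count as repeats of each other.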

How the data were processed

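RNA-seq was made by the submitters from sorted mouse intestinal cells, and the deposited table holds read counts per gene of 25 libraries. Per the submitters' processing notes, Bowtie2, TopHat2 2.0.6, DESeq2 and the genome build mm10 were used; the sources used here do not give their roles or say whether counting used strand. From these counts, genes were tested with edgeR 4.0.16 (limma 3.58.1, R 4.3.3): the filterByExpr filter on low counts (10 per library, 15 in total), TMM scaling, and 1 quasi-likelihood model over 24 libraries of 11 groups, which share an estimate of the spread. A group with a single irradiated library was left out. Of 24062 genes, 14837 were tested, with Benjamini-Hochberg adjustment over all of them. The standard error is the log2 fold change divided by the root of the F statistic. The script was tested on simulated counts.

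Genes were named by a rule. It takes the genes of the reporter and the sorted antigens, and the 10 largest changes in each direction at 20 CPM or more without overlap. Of each list it takes up to 5 called members per direction of lowest adjusted p and the 2 most expressed uncalled ones. It also admits ligands and receptors at 1 CPM or more and cell type markers. Epgn, Lcn2, Defa21, Mcm6, Gins3, Cdc6, Thbs1, Nts, the gene models Gm15284, Gm14851 and AY761184, and some members given for a motif or a lost call fall outside it and were chosen after their values were seen. The members and lists were chosen with earlier results of these data known. Promoter sequences are RefSeq's for GRCm38.p6, matched by symbol. Alternatives were DESeq2 1.42.0, its size factors, no filter, fewer libraries, a replicate block, leaving out each library, scaling without the genes above 1% of a Paneth library, and the Lgr5-GFP-DTR group in place of Lgr5-GFP-Cre. Some genes that the rule names are not reported here.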

Additional observations from a re-analysis of the deposited data

How the results depend on the processing

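Of 347 genes open to naming, 215 were called, and none of these reversed under another scaling, filter, tool or set of libraries; calls lost numbered 4 with DESeq2's size factors, 4 with no filter, 1 with DESeq2 (295 genes had no adjusted p there), 3 without the most abundant genes in the scaling, 13 to 20 without 1 Lgr5-GFP-Cre library, 43 without Paneth replicate 1 and 48 without Paneth replicate 2. With the 5 compared libraries alone, where fewer genes and libraries enter, 2222 genes were higher and 1626 lower, and 29 named genes lost their call. Leaving out 1 library gave 2301 to 3054 higher and 1997 to 2978 lower genes against Lgr5-GFP-Cre, and against enteroendocrine cells 1264 to 1667 higher and 1295 to 1425 lower. Same-numbered Paneth and Lgr5-GFP-Cre libraries deviated from their group means with r = 0.02 and -0.02. The deviations of the 2 Paneth libraries are mirror images, so these values cannot show whether replicate numbers pair the samples. With the replicate block, 2776 genes were higher and 2425 lower. With Lgr5-GFP-DTR as the stem cell group, 57 named genes lost their call and 36 reversed. Reversed here means a fold change of the opposite sign with a call in either comparison. Such a gene need not be called in both, and some of these fold changes lie near 0.

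Against that group the log2 fold changes that reversed among genes in the text were Creld2 -1.26, Siglec5 -1.24, Pfkfb3 -1.17, Ptgs1 -1.04, Inpp5d -0.99, Fut2 -0.99, Trpm5 -0.95, Dclk1 -0.88, Cdkn1a -0.78, Bmx -0.65, Hspa5 -0.48, Alox5 -0.37, Kdelr3 -0.31, Ero1lb -0.30, Fzd9 -0.20, Cd24a -0.13, Hsp90b1 -0.12, Nkd1 -0.11 and Wnt3 -0.0245, and on the other side Acaa2 0.0295, Acads 0.048, Atg16l1 0.19, Slc39a3 0.29, Ephb4 0.70, Slc12a2 0.70, Lrig1 0.99, Dnmt1 1.04, Fzd7 1.08 and Slc39a2 3.82; the cause was not tested.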

Other observations

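Lgr5-GFP-Cre replicate 3 lay between the other 2 stem cell libraries in 65.1% of 11090 genes with at least 100 counts over the 3, against 16.2% for replicate 1 and 18.7% for replicate 2. Its median squared deviation from the midpoint of the other 2 was 9.37 times the counting variance, against 51.7 for replicate 1 and 39.0 for replicate 2. Genes differing more than 2-fold numbered 1561 between replicates 1 and 2, 535 between 1 and 3 and 206 between 2 and 3, and 1543 between the 2 Paneth libraries. The cause was not tested.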
